A study of Homo sapiens with 6 samples.

Results

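The ADAM, ADAMTS and ADAMTSL genes were taken as every row of the count table whose symbol is ADAM, ADAMTS or ADAMTSL followed only by a number. The table of 38167 genes held 46 of them, 22 ADAM, 19 ADAMTS and 5 ADAMTSL genes. They were measured by RNA sequencing of spheroids of Cal27, an established human tongue squamous carcinoma line. Spheroids were grown for 14 days by liquid overlay in stiff Matrigel (12 mg/mL) or in soft Matrigel (3 mg/mL). Matrigel is a gelling extract rich in laminin and collagen IV, and each condition has 3 libraries. Cal27 is 1 cancer line, and the labels name no other cell type. The concentration of Matrigel changes stiffness and matrix ligand together, so these cannot be told apart. The labels call the libraries biological replicates but do not say that they are separate cultures, so every p-value here rests on the spread of these libraries, which may be technical.

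ADAM proteins are membrane-anchored metalloproteases that cut the outer parts of growth factor precursors, receptors and adhesion proteins off the cell surface, a process called shedding. ADAMTS proteins are secreted relatives with thrombospondin repeats that cut proteoglycans, procollagens and other matrix proteins. ADAMTSL proteins resemble ADAMTS proteins but have no protease domain, and several bind the fibrillin microfibrils of the matrix. In squamous epithelium and its carcinomas, ADAM10 and ADAM17 are best known for releasing ligands of the EGF receptor and for cutting Notch receptors and cadherins.

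The libraries held 35292340 to 36594685 counted fragments in stiff and 30656278 to 40583044 in soft. Markers of the labelled squamous type were abundant, and the 10 genes summed to 21310 to 22590 CPM (counts scaled to a common library size with TMM factors) in stiff and 7298 to 7992 CPM in soft, with 7 higher and 2 lower in stiff. The keratin genes KRT6A, KRT14 and KRT5 rose 3.86-fold, 6.28-fold and 3.29-fold. Stiff replicate 2 lay apart from the other stiff libraries on the second principal component (-22.8 against 14.1 and 12.2), which held 9.99% of the variance. Results that depend on it are given with and without it.

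Of the 46 genes, 24 had enough counts to be tested, 12 ADAM, 9 ADAMTS and 3 ADAMTSL genes, and 17 averaged at least 1 CPM over the 6 libraries. The other 22 stayed below edgeR's count filter. The 10 ADAM genes among them were ADAM2, ADAM5, ADAM6, ADAM7, ADAM18, ADAM21, ADAM29, ADAM30, ADAM32 and ADAM33, with 0 to 13 fragments in a library. ADAM5 and ADAM6, which are annotated as transcribed pseudogenes, and ADAM2, known from sperm, had 0 fragments in all 6 libraries. The 10 ADAMTS genes were ADAMTS2, ADAMTS5, ADAMTS8, ADAMTS9, ADAMTS10, ADAMTS12, ADAMTS14, ADAMTS18, ADAMTS19 and ADAMTS20, with 0 to 12 fragments in a library. ADAMTSL2 and ADAMTSL3 had 0 to 7. Genes at this depth were not shown to be absent, and no difference between conditions could be tested in them.

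Among the 24 tested genes, 7 rose in stiff over soft Matrigel and 7 fell (edgeR's quasi-likelihood test, with a threshold of 0.05 on the adjusted p). That is 58.3% of the tested members, beside 49.1% of all 18676 genes tested in this comparison (25.3% higher and 23.8% lower). Over all genes 51.5% of the calls were higher, against 41.3% to 43.3% in fits on the deposited TPM. Of 12 ADAM genes, 2 rose, 5 fell and 5 were not called, with a median log2 fold change of -0.29. Of 9 ADAMTS genes, 3 rose, 1 fell and 5 were not called, with a median of 0.40. Of 3 ADAMTSL genes, 2 rose and 1 fell, with a median of 0.55. The median over all genes tested was -0.00017. The families were not tested against each other, so these medians are a description. Calls of at least 2-fold numbered 4 higher and 4 lower, against 7.6% and 5.62% of all genes. In 17 of the 24 genes the values of stiff and soft did not overlap, beside 59.9% of all genes.

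**Figure D1:**
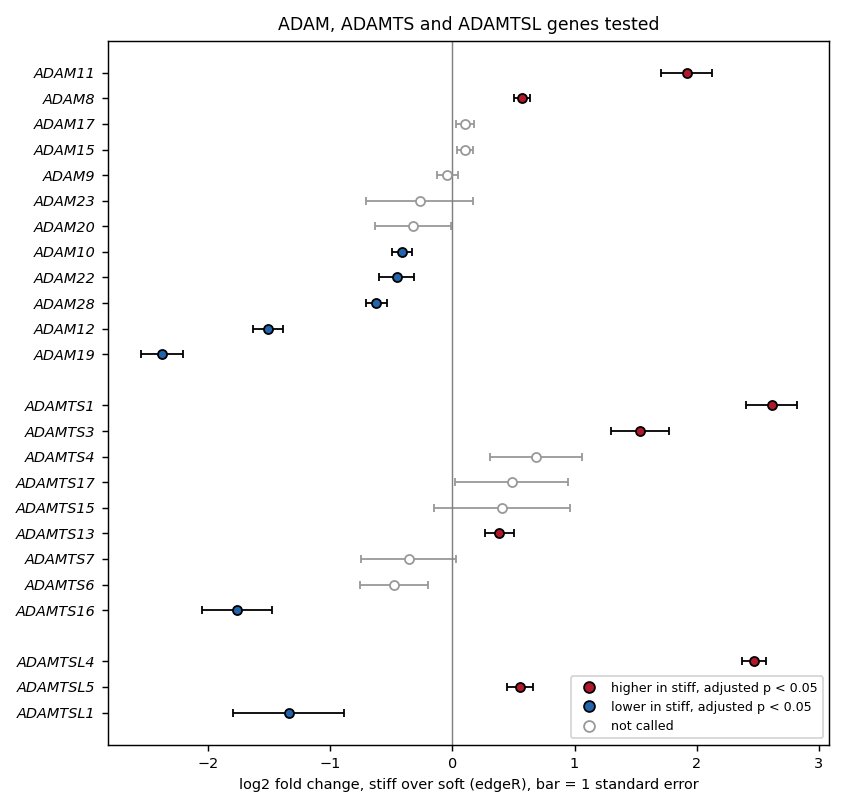
Each point is the log2 fold change of 1 tested gene, stiff over soft, on the horizontal axis, and the bar is 1 standard error; genes run down the page within their family. ADAMTS1 (2.61) and ADAMTSL4 (2.47) stand furthest to the right and ADAM19 (-2.38) furthest to the left, while ADAM9, ADAM15 and ADAM17 lie close to 0.

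The promoters of the called genes that changed at least 2-fold, averaged at least 4 CPM and are listed in RefSeq's promoter table are printed here, because they belong to well-measured members with large changes. They are ADAMTSL4, which rose, and ADAM12 and ADAM19, which fell. Each line gives the 250 bases before the annotated start in GRCh38.p14, written 5′ to 3′ on the strand of the gene. Capitals mark matches to any of 4 short motifs on either strand, neighbouring matches can run together, and CACGTG holds ACGTG on both strands. The motifs were CATTCC (bound by TEAD factors), TGANTCA (AP-1), ACGTG (the core of the hypoxia response element) and GGGCGG (the GC box).
ADAMTSL4, chr1:150549158-150549407, strand +: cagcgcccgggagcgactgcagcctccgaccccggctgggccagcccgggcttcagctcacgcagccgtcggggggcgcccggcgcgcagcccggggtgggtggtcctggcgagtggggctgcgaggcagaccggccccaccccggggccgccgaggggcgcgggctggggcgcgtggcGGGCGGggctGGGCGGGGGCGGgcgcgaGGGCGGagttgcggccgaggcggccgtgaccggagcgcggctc
ADAM12, chr10:126388478-126388727, strand -: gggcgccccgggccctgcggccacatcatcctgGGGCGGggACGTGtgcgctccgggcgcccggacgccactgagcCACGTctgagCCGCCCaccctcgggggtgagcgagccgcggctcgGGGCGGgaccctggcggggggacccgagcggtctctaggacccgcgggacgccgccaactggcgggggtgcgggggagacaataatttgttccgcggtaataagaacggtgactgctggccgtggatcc
ADAM19, chr5:157575776-157576025, strand -: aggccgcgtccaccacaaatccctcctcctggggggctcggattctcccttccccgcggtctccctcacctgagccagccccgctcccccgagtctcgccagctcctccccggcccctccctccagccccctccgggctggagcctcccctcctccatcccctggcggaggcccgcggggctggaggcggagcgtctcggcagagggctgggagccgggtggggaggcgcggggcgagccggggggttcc

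The ADAMTSL4 window held 4 matches to GGGCGG and none to the other motifs. The ADAM12 window held 3 matches to GGGCGG and 2 to ACGTG, and the ADAM19 window held 0 matches to any of the 4. Of 35116 promoters of the same length, 42.6% held GGGCGG, 18.5% held ACGTG, 11.9% held CATTCC and 6.57% held TGANTCA. Promoters were listed for 17 of the 24 tested genes, of which 5 rose, 5 fell and 7 were not called. GGGCGG was present in 5 of the 5 that rose, 3 of the 5 that fell and 5 of the 7 others. ACGTG was present in 1 that rose, 2 that fell and 3 of the others. CATTCC was present in 2 of the others and in 0 called genes, and TGANTCA in 0 of the 17. The shares of G and C were high in all 3 groups, with medians of 75.2% for those that rose, 68.4% for those that fell and 73.6% for the others, beside 58% over all promoters. A match describes letters in the window and not binding.

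The most abundant members were ADAM genes. Levels of different genes are compared as CPM per kb of annotated exon. In stiff the order was ADAM15 (57.6 ± 2.68), ADAM9 (43.4 ± 4.34), ADAM17 (33.8 ± 2.50), ADAM8 (26.1 ± 0.664), ADAM10 (16.4 ± 1.495) and ADAM28 (7.65 ± 0.702 CPM per kb, SD, n = 3 each). In soft it was ADAM15 (53.6 ± 0.973), ADAM9 (44.7 ± 2.84), ADAM17 (31.4 ± 1.32), ADAM10 (21.9 ± 1.02), ADAM8 (17.5 ± 0.560) and ADAM28 (11.8 ± 0.863 CPM per kb, SD, n = 3 each). No library of one gene overlapped the next gene in either order. ADAM8 and ADAM10 stood in opposite order in the 2 gels. These orders depend on the length used; the annotated exons of ADAM10, for example, span 13123 bases and its coding part 2425. Per kb of coding sequence ADAM10 averaged 88.8 CPM in stiff and 118 CPM in soft, and ADAM9 98.5 CPM in stiff and 101 CPM in soft, so ADAM9 came first in stiff and ADAM10 in soft. Both stood above ADAM15 (70.2 in stiff and 65.4 in soft), ADAM17 (60.4 in stiff and 56.1 in soft) and ADAM8 (34.6 in stiff and 23.2 in soft).

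**Figure D2:**
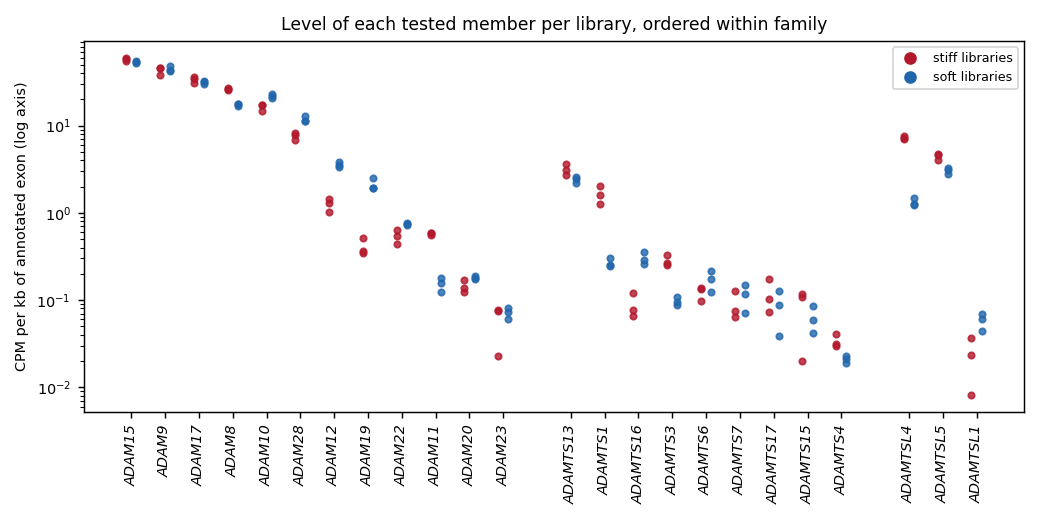
Each point is 1 library, with CPM per kb of annotated exon on a log axis and the 24 tested genes on the horizontal axis, ordered by level within each family. ADAM15 stands highest, and the stiff and soft points separate widely for ADAM12, ADAM19, ADAM11, ADAMTS1 and ADAMTSL4.

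Summed over the 22 ADAM genes, the level was 188 ± 6.30 CPM per kb in stiff and 188 ± 6.58 in soft (SD, n = 3 each), a difference smaller than the spread between libraries. This too depends on the length used. With no length the ADAM genes summed to 1005, 914.8 and 1012 CPM in stiff, against 1071, 1027 and 1108 CPM in soft, and per kb of coding sequence to 385 ± 21.7 CPM in stiff and 422 ± 16.1 CPM in soft. On both of these scales every stiff library lay below every soft library. The 19 ADAMTS genes summed to 5.70 ± 0.443 CPM per kb in stiff and 3.62 ± 0.186 in soft. The 5 ADAMTSL genes summed to 11.8 ± 0.422 CPM per kb in stiff and 4.44 ± 0.346 in soft. The stiff sums of ADAMTS and ADAMTSL genes lay above the soft sums without overlap on all 3 scales. These sums do not show a rise of every member. ADAMTS1 averaged 1.63 CPM per kb in stiff and 0.267 in soft, and ADAMTS13 3.15 in stiff and 2.42 in soft. ADAMTSL4 averaged 7.32 CPM per kb in stiff and 1.32 in soft, while ADAMTS16 and ADAMTSL1 fell.

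ADAM10 cuts Notch receptors, E-cadherin and betacellulin, and ADAM17 cuts the precursors of TNF, amphiregulin, TGF-alpha and HB-EGF. ADAM10 (Entrez 102, chromosome 15, 58588809 to 58749707 in GRCh38.p14) had 226, 193 and 227 CPM in stiff replicates 1 to 3, against 300, 273 and 288 CPM in soft. All stiff values lay below all soft values. It fell 1.33-fold (log2 fold change -0.41, SE 0.08, adjusted p = 0.00192). ADAM17 had 158, 137 and 153 CPM in stiff and 140, 133 and 144 CPM in soft, with stiff replicate 2 inside the soft range. Its log2 fold change was 0.11 (SE 0.07, adjusted p = 0.265). Without stiff replicate 2 ADAM17 was called higher (log2 fold change 0.16, adjusted p = 0.0142). IAH1, a gene on the opposite strand, covers 12.3% of the exons of ADAM17, so the counts of ADAM17 are uncertain. The ratio of ADAM10 to ADAM17, each per kb of exon, was 0.481, 0.473 and 0.501 in stiff and 0.722, 0.693 and 0.672 in soft. Which gene stands higher depends on the length used. Per kb of coding sequence ADAM10 averaged 88.8 CPM in stiff and 118 CPM in soft, above ADAM17 at 60.4 CPM in stiff and 56.1 CPM in soft.

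ADAM9 and ADAM15, active proteases found in many epithelia, were not called. ADAM9 had 275, 228 and 270 CPM in stiff and 260, 251 and 284 CPM in soft (log2 fold change -0.04, SE 0.09, adjusted p = 0.722). ADAM15 had 180, 197 and 188 CPM in stiff and 173, 174 and 179 CPM in soft (log2 fold change 0.10, SE 0.06, adjusted p = 0.21). The stiff values of ADAM15 lay just above its soft values without a call, and DCST1-AS1, with 218 to 393 fragments in a library, spans the gene. On the authors' TPM scale, where the median gene shifts by -0.11 (log2), ADAM15 and ADAM17 had log2 differences of -0.01 each. ADAM8, a protease known from leukocytes and from several carcinomas, had 83.3, 87.7 and 85.3 CPM in stiff and 55.3, 58.7 and 58.3 CPM in soft. It rose 1.49-fold (log2 fold change 0.57, SE 0.07, adjusted p = 7.04e-05).

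The largest falls in the ADAM family belonged to ADAM19 and ADAM12, which are among the meltrin proteases. Mouse ADAM19 is known to cut neuregulin, and ADAM12 is known to cut HB-EGF. ADAM19 (Entrez 8728, chromosome 5, 157477304 to 157575775) had 2.44, 2.55 and 3.60 CPM in stiff, against 13.5, 13.5 and 17.7 CPM in soft. The highest stiff library stood far below the lowest soft library. ADAM19 fell 5.19-fold (log2 fold change -2.38, SE 0.17, adjusted p = 3.72e-06). ADAM12 (Entrez 8038, chromosome 10, 126012391 to 126388477) had 11.3, 8.998 and 12.8 CPM in stiff, against 33.6, 29.8 and 31.1 CPM in soft. It fell 2.85-fold (log2 fold change -1.51, SE 0.12, adjusted p = 7.39e-06). As a share of the summed ADAM level per kb, ADAM12 made up 0.663% ± 0.0959 in stiff and 1.899% ± 0.123 in soft, and ADAM19 made up 0.216% ± 0.0441 in stiff and 1.124% ± 0.141 in soft (SD, n = 3 each).

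ADAM28, first known from lymphocytes, also fell. It had 59.2, 51.7 and 61.9 CPM in stiff and 85.8, 84.1 and 96.1 CPM in soft, a 1.54-fold fall with no overlap (log2 fold change -0.62, SE 0.09, adjusted p = 0.000267). CD14, the leukocyte marker of highest CPM among 6, also fell, at 36.6 ± 4.58 CPM in stiff and 51.4 ± 2.42 CPM in soft (SD, n = 3 each). The leukocyte-defining gene PTPRC was near 0, at 0.0371 ± 0.0423 CPM in stiff and 0.00802 ± 0.0139 CPM in soft. ITGAM, another leukocyte marker, rose 1.70-fold to 4.99 ± 0.570 CPM in stiff, against 2.96 ± 0.729 CPM in soft (adjusted p = 0.00854), as ADAM8 did, and CD3E was not called (adjusted p = 0.817). The 6 markers summed to 37.7 to 45.2 CPM in stiff and 52.4 to 57.9 CPM in soft, with 1 of the 3 tested higher and 1 lower. The part of other cell types in the values of ADAM28 and ADAM8 was not tested.

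ADAM11, ADAM22 and ADAM23 encode members without protease activity, best known from neurons, where ADAM22 and ADAM23 bind the secreted protein LGI. ADAM11 had 2.81, 2.64 and 2.77 CPM in stiff, against 0.746, 0.586 and 0.836 CPM in soft. It rose 3.78-fold (log2 fold change 1.92, SE 0.21, adjusted p = 4.91e-05) on 291 fragments in the stiff libraries and 77 in the soft libraries. ADAM22 had 6.002, 4.88 and 7.07 CPM in stiff and 8.35, 8.002 and 8.26 CPM in soft (log2 fold change -0.46, SE 0.14, adjusted p = 0.0221). The call of ADAM22 was lost without stiff replicate 1 (adjusted p = 0.0503), without soft replicate 1 (adjusted p = 0.069) and without soft replicate 3 (adjusted p = 0.0595). ADAM23 and ADAM20, a gene known from testis, stayed at or below 0.528 CPM in every library and were not called (adjusted p = 0.636 and 0.421). Of 6 male germ cell markers, 3 were at 0 in all libraries, and the most abundant, ACR, reached at most 0.493 CPM.

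**Figure D3:**
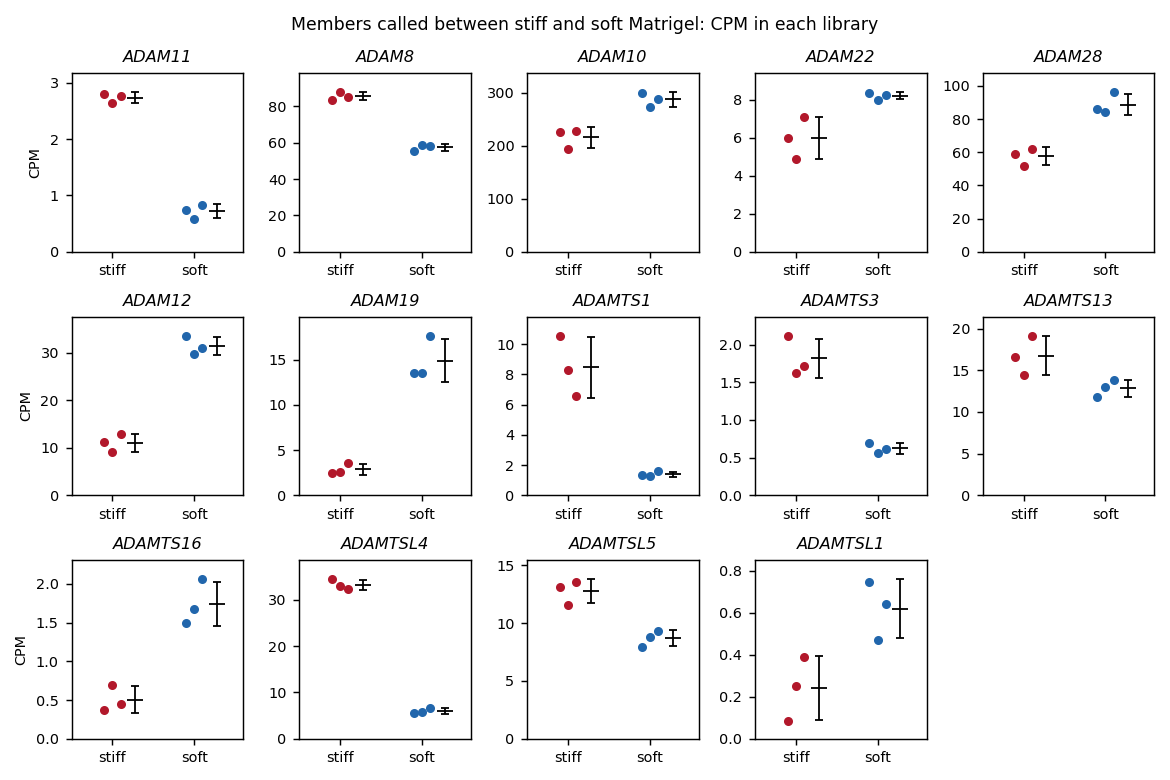
CPM in each library (dots) for the 14 called genes, with stiff at the left and soft at the right of each panel; the bar beside the dots is the mean ± SD of 3 libraries and every axis starts at 0. No stiff dot overlaps the soft dots in any panel, and the gap is small against the spread for ADAMTS13 and ADAMTSL1.

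Among the ADAMTS genes, ADAMTS1 showed the largest rise of all 24 tested members. ADAMTS1 (Entrez 9510, chromosome 21, 26835755 to 26845409), which cuts versican and aggrecan, had 10.6, 8.30 and 6.54 CPM in stiff, against 1.32, 1.26 and 1.58 CPM in soft. The stiff libraries spread more than the soft ones, but the lowest of them stood far above the highest soft library. It rose 6.11-fold (log2 fold change 2.61, SE 0.21, adjusted p = 5.8e-06). ADAMTS13, the protease that trims von Willebrand factor, was the most abundant ADAMTS gene per kb of exon in both gels, at 3.15 ± 0.439 CPM per kb in stiff and 2.42 ± 0.192 in soft (SD, n = 3 each). ADAMTS1 made up 28.6% ± 6.15 of the summed ADAMTS level per kb in stiff and 7.38% ± 0.647 in soft (SD, n = 3 each), and ADAMTS13 made up 55.3% ± 5.88 in stiff and 66.8% ± 1.93 in soft.

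ADAMTS13 itself had 16.6, 14.5 and 19.1 CPM in stiff and 11.8, 13.0 and 13.8 CPM in soft. REXO4, with 1854 to 2648 fragments in a library against 429 to 690 for ADAMTS13, overlaps 3836 bases of its span, so the counts of ADAMTS13 are uncertain. ADAMTS13 rose 1.30-fold (log2 fold change 0.38, SE 0.12, adjusted p = 0.0217). The call was lost without stiff replicate 3 (adjusted p = 0.0877), without soft replicate 1 (adjusted p = 0.0973) and without soft replicate 2 (adjusted p = 0.0608), and in each fit on TPM (adjusted p of 0.285 to 0.328). Its known substrate VWF also rose, to 3.22 ± 0.577 CPM in stiff, against 1.58 ± 0.257 CPM in soft (SD, n = 3 each, adjusted p = 0.00234). VWF is also on the list of endothelial markers given below, where CDH5 fell and PECAM1 was not called. Whether the changes of ADAMTS13 and VWF are linked was not tested.

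ADAMTS3, which removes the amino-terminal part of procollagen and matures VEGF-C, had 2.12, 1.63 and 1.72 CPM in stiff and 0.698, 0.557 and 0.611 CPM in soft. It rose 2.90-fold (log2 fold change 1.54, SE 0.24, adjusted p = 0.00047). ADAMTS16 went the other way, with 0.377, 0.701 and 0.444 CPM in stiff and 1.49, 1.67 and 2.06 CPM in soft. It fell 3.39-fold (log2 fold change -1.76, SE 0.29, adjusted p = 0.000685), on 54 fragments in the stiff libraries and 183 in the soft libraries. LOC101929200, a noncoding RNA gene, overlaps 61755 bases of the span of ADAMTS16. It had 35 to 52 fragments in a stiff library and 39 to 68 in a soft library, so the counts of ADAMTS16 are uncertain. The other ADAMTS genes tested were ADAMTS4, ADAMTS6, ADAMTS7, ADAMTS15 and ADAMTS17. They lay between 0.112 and 1.59 CPM in single libraries and were not called (adjusted p of 0.16 to 0.571). ADAMTS7, which cuts the cartilage protein COMP, had 0.348, 0.701 and 0.416 CPM in stiff and 0.818, 0.645 and 0.386 CPM in soft, with overlap.

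ADAMTSL4 had the smallest p of all 24 members. It encodes a fibrillin-binding matrix protein in which inherited loss displaces the lens of the eye. ADAMTSL4 (Entrez 54507, chromosome 1, 150549408 to 150560937) had 34.4, 33.0 and 32.3 CPM in stiff, against 5.61, 5.69 and 6.72 CPM in soft. It rose 5.55-fold (log2 fold change 2.47, SE 0.10, adjusted p = 1.19e-07). ADAMTSL4-AS1 covers 11.4% of its exons on the opposite strand and had 9 to 25 fragments in a library, and ADAMTSL4-AS2, whose span overlaps 8317 bases of the gene, had 59 to 78 fragments in stiff and 17 to 26 in soft. ADAMTSL4 had 1165 to 1187 fragments in stiff and 194 to 233 in soft, far above both, although the split of shared reads is uncertain.

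ADAMTSL5, another fibrillin-binding member, had 13.1, 11.6 and 13.6 CPM in stiff and 7.92, 8.82 and 9.33 CPM in soft. It rose 1.47-fold (log2 fold change 0.55, SE 0.11, adjusted p = 0.00214). Per kb of exon, ADAMTSL4 stood above ADAMTSL5 in stiff (7.32 ± 0.238 against 4.46 ± 0.362 CPM per kb) and below it in soft (1.32 ± 0.137 against 3.04 ± 0.249 CPM per kb, SD, n = 3 each). The gap in stiff depends on the length used. Per kb of coding sequence ADAMTSL4 averaged 9.88 CPM in stiff and 1.79 CPM in soft, and ADAMTSL5 9.01 CPM in stiff and 6.15 CPM in soft. ADAMTSL1, also called punctin, was barely expressed, with 0.087, 0.252 and 0.388 CPM in stiff and 0.746, 0.469 and 0.643 CPM in soft. It was called lower (log2 fold change -1.34, SE 0.46, adjusted p = 0.033) on 26 fragments in the stiff libraries and 67 in the soft libraries. The call was lost without stiff replicate 1 (adjusted p = 0.0956), without soft replicate 1 (adjusted p = 0.126), without soft replicate 3 (adjusted p = 0.0807) and with DESeq2 (adjusted p = 0.0617).

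Genes that carry, activate or block these proteases changed in both directions. Of 13 partners and activators, 2 rose, 6 fell and 5 were not called, with a median log2 fold change of -0.09. That is 61.5% called, beside 49.1% of all genes tested (25.3% higher and 23.8% lower). The lists of related genes were not tested as sets. The iRhoms, which bring ADAM17 to the surface, moved apart: RHBDF1 rose 1.30-fold to 66.2 ± 1.27 CPM in stiff, against 50.8 ± 1.14 CPM in soft (adjusted p = 0.000871), and RHBDF2 fell 1.28-fold to 102 ± 10.96 CPM in stiff, against 130 ± 10.4 CPM in soft (adjusted p = 0.0102). Among the tetraspanins that accompany ADAM10, TSPAN5 rose 2.08-fold to 11.1 ± 0.850 CPM in stiff, against 5.32 ± 0.552 CPM in soft (adjusted p = 6.82e-05). TSPAN14 and TSPAN15, with higher levels per kb of exon than TSPAN5, were not called (adjusted p = 0.872 and 0.124). TSPAN33 and TSPAN17 fell 1.46-fold and 1.19-fold (adjusted p = 0.0105 and 0.0291), and TSPAN10 was not called (adjusted p = 0.909). The proprotein convertases PCSK5 and PCSK6, of the enzyme class that removes ADAM pro-domains, fell 1.79-fold and 1.52-fold (adjusted p = 0.000685 and 0.000571); an antisense gene covers 10.8% of the exons of PCSK6, whose counts are uncertain. PCSK7 fell 1.36-fold (adjusted p = 0.00329), and a gene on the opposite strand covers 17.7% of its exons, so its counts are uncertain too. FURIN, the convertase of highest level per kb of exon among the 4 listed, had 106 ± 6.25 CPM in stiff and 114 ± 7.62 CPM in soft and was not called (adjusted p = 0.33). TSR O-glycosylation genes, POFUT2 and B3GLCT, which modify the thrombospondin repeats of ADAMTS and ADAMTSL proteins, were not called (adjusted p = 0.461 and 0.238).

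Of 5 tested inhibitors, 3 rose and 2 fell, so all were called, beside 49.1% of all genes tested. TIMP3, the TIMP best known for blocking ADAM17 and ADAMTS proteases, had 52.1, 54.7 and 56.1 CPM in stiff, against 82.5, 82.9 and 84.4 CPM in soft. It fell 1.53-fold (log2 fold change -0.62, SE 0.07, adjusted p = 4.34e-05). TIMP2 rose 1.57-fold to 80.0 ± 2.68 CPM in stiff, against 50.9 ± 3.5 CPM in soft (SD, n = 3 each, adjusted p = 6.97e-05), and TIMP1, which can block ADAM10, rose 1.83-fold to 25.6 ± 3.82 CPM, against 14.0 ± 1.00 CPM in soft (adjusted p = 0.000185). RECK, a membrane-anchored inhibitor of metalloproteases, rose 1.77-fold to 6.67 ± 1.35 CPM in stiff, against 3.77 ± 0.873 CPM in soft (adjusted p = 0.00659). TIMP4 was the other gene that fell, at 0.132 ± 0.0361 CPM in stiff and 0.973 ± 0.516 CPM in soft (adjusted p = 0.000947), with 10.3% of its exons covered by SYN2. A2M, a plasma inhibitor, had too few fragments to be tested.

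**Figure D4:**
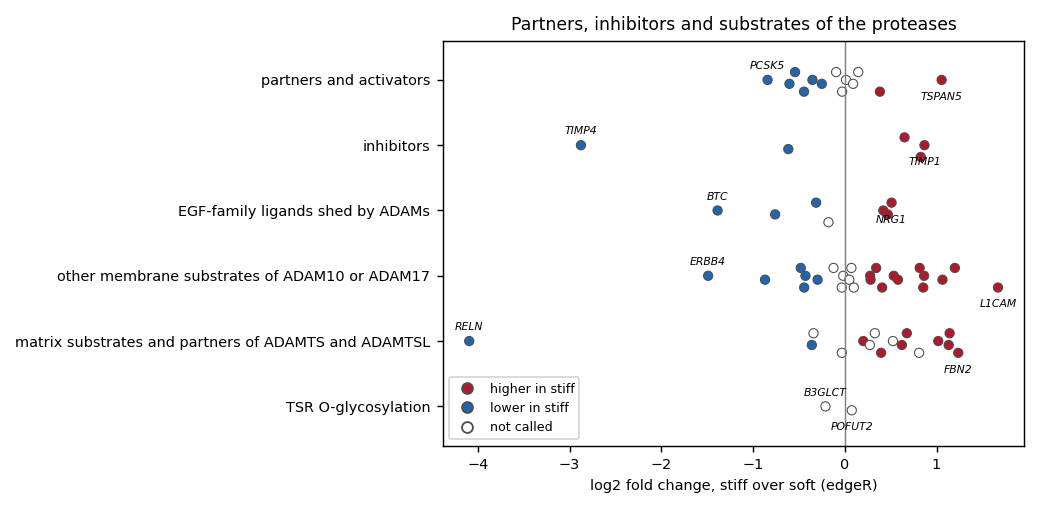
Each point is 1 tested gene of a list named at the left, placed by its log2 fold change, stiff over soft; red is higher in stiff, blue lower and white not called, and the outermost genes are named (the vertical scatter within a list has no meaning). Every list with at least 5 tested genes holds points on both sides of 0.

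Substrates of the ADAM proteases also moved both ways. Of 7 tested EGF-family ligands, 3 rose, 3 fell and 1 was not called. That is 85.7% called, beside 49.1% of all genes tested. BTC, which ADAM10 sheds, fell 2.62-fold to 1.19 ± 0.215 CPM in stiff, against 3.13 ± 0.288 CPM in soft (adjusted p = 0.000274), and HBEGF fell 1.69-fold to 35.9 ± 5.94 CPM, against 60.9 ± 5.14 CPM in soft (adjusted p = 0.000439). NRG1 rose 1.42-fold to 47.0 ± 2.85 CPM in stiff, against 33.0 ± 1.53 CPM in soft (SD, n = 3 each, adjusted p = 0.000452). AREG and TGFA, whose precursors ADAM17 cuts, rose 1.38-fold and 1.34-fold (adjusted p = 0.0186 and 0.000601). EREG fell 1.24-fold (adjusted p = 0.02955), and EGF was not called (adjusted p = 0.502). Of 24 other membrane substrates, 12 rose and 6 fell, with a median log2 fold change of 0.19. That is 75% called, beside the same share of all genes. SDC4, a heparan sulfate proteoglycan of the cell surface, rose 2.09-fold (adjusted p = 4.39e-06), CD44, the hyaluronan receptor, rose 2.30-fold (adjusted p = 5.97e-06) and the ephrin EFNB1 rose 1.81-fold (adjusted p = 1.01e-05). The Notch receptors moved both ways: NOTCH1 and NOTCH2 fell 1.40-fold and 1.83-fold (adjusted p = 0.00668 and 0.000481), and NOTCH3 rose 1.495-fold (adjusted p = 0.00262). CDH1, the E-cadherin gene, fell 1.36-fold to 235 ± 25.0 CPM in stiff, against 320 ± 15.7 CPM in soft (SD, n = 3 each, adjusted p = 0.00194). TNF, whose precursor ADAM17 cuts, rose 1.76-fold to 5.08 ± 1.04 CPM in stiff, against 2.89 ± 0.226 CPM in soft (adjusted p = 0.00382).

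Of 16 tested matrix substrates and partners of ADAMTS and ADAMTSL proteins, 8 rose, 2 fell and 6 were not called, with a median log2 fold change of 0.46. That is 62.5% called, beside 49.1% of all genes tested (25.3% higher and 23.8% lower). THBS1 rose 2.21-fold to 84.0 ± 6.48 CPM in stiff, against 38.0 ± 2.28 CPM in soft (adjusted p = 3.48e-06), and LTBP4, which holds latent TGF-beta in the matrix, rose 1.598-fold to 154 ± 10.2 CPM, against 96.4 ± 4.19 CPM in soft (adjusted p = 4.75e-05). RELN, a secreted glycoprotein cut by ADAMTS proteases, fell 17.1-fold to 0.200 ± 0.129 CPM in stiff, against 3.45 ± 0.310 CPM in soft (adjusted p = 5.77e-06). VCAN, the versican gene and a main substrate of ADAMTS1, was at 1.24 ± 0.152 CPM in stiff and 0.862 ± 0.0888 CPM in soft and was not called (adjusted p = 0.0881), and ACAN was at 0 in all stiff libraries and at or near 0 in soft. VCAN, ACAN and VWF here were named after their values were seen. So were TIMP4, FURIN, PCSK7, TSPAN10, TSPAN17, TSPAN33, AREG, TGFA, EREG, EGF, TNF, NOTCH1, NOTCH2, NOTCH3 and CDH1 among the other lists.

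Fibroblasts and endothelial cells also express several of these genes. Of 8 fibroblast markers, 4 were tested, and 2 of those rose and 0 fell; the 8 summed to 99.3 to 106 CPM in stiff and 72.9 to 80.4 CPM in soft. LUM rose to 17.3 ± 1.07 CPM in stiff, against 2.31 ± 0.996 CPM in soft (SD, n = 3 each). Most of the sum was COL1A1, at 82.6 ± 3.41 CPM in stiff and 71.8 ± 4.66 CPM in soft, while THY1 was at 0 in all libraries and COL3A1 and DCN averaged at most 0.200 CPM in either gel. Of 5 endothelial markers, 3 were tested, with 1 higher and 1 lower. The 5 summed to 3.81 to 5.07 CPM in stiff and 10.95 to 14.0 CPM in soft. VWF, which rose, led in stiff (3.22 ± 0.577 CPM in stiff and 1.58 ± 0.257 CPM in soft). CDH5, which fell, led in soft (0.552 ± 0.267 CPM in stiff and 10.4 ± 1.41 CPM in soft, SD, n = 3 each). PECAM1, like PDGFRB of the fibroblast list, was not called (adjusted p = 0.835 and 0.271), and KDR was at or near 0. In bulk RNA, fewer cells of a type and less RNA per cell cannot be told apart, and the part of these markers in the changes of ADAM, ADAMTS and ADAMTSL genes was not tested.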

How the data were processed

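Polyadenylated RNA was sequenced as directional paired-end libraries, per the labels' protocols. Per the submitters' processing notes, the build was hg38 and the tools included featureCounts 1.6.2, STAR 2.6.1e, cutadapt 1.9.1, FastQC 0.11.7 and Trim Galore 0.4.2. Not given in the sources used here are the annotation, strand setting and multi-mapping, so partners on either strand were not told apart. The authors deposited raw whole-number counts per gene symbol, and TPM tables rounded to 1 decimal. The length implied by the deposited TPM grew with the number of RefSeq transcripts of a gene (8.65 times larger relative to exon length for genes with 10 or more transcripts than for genes with 1), so TPM was not used to compare genes. CPM per kb used the union of exons in GENCODE release 29 (basic set).

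The main test was edgeR 4.0.16 in R 4.3.3 (quasi-likelihood, TMM, default filter, no covariate) over all genes with Benjamini-Hochberg adjustment; SE is the fold change divided by the root of F. Alternatives were DESeq2 1.42.0, limma 3.58.1 on log2(TPM + 1) and log2(TPM + 0.1), other scalings and filters, a robust dispersion, a stricter threshold, a replicate block and each library left out. The tests were also run on simulated counts in which few genes were changed, with equal numbers raised and lowered. In these data 49.1% of all tested genes were called, so the simulation does not show how the tests behave with that many changes. Deviations of same-numbered stiff and soft libraries from their group means correlated at 0.173, 0.375 and 0.117, all over the limit of 0.1 set for treating the numbers as pairs. Stiff 1 with soft 3 (0.1495) and stiff 3 with soft 1 (0.145) lay over the limit as well and above the pair numbered 3. Pairs 1 and 3 are thus not told apart by this check, and the labels give no shared day or batch. The main test was therefore unpaired, and only the replicate block used the numbers as pairs.

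Named were all members, with values per library for called ones and the 5 of highest mean TPM per family. From each list with tested genes, the 3 with the smallest p were named. The marker of highest CPM for other cell types, RHBDF1, RHBDF2, TSPAN14, TSPAN15, TIMP3 and RECK were named as well. PTPRC, A2M, THY1, COL3A1, DCN, KDR and ADAMDEC1 were named outside these rules, as were genes that overlap a named gene. Other exceptions are marked. The members and lists were chosen with earlier results of these data known. Positions and promoters are from RefSeq on GRCh38.p14 (46 of 46 members matched by symbol). Libraries of a condition differed beyond counting noise. Chi-square over its degrees of freedom was 3.39 for stiff replicates 1 and 3, and 33.4 and 32.8 for the pairs with stiff replicate 2. In soft it was 5.97 to 7.45. Each library was counted as 1 replicate, but technical spread can also exceed counting noise, so this does not show that the libraries are separate cultures.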

Additional observations from a re-analysis of the deposited data

How the results depend on the processing

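Of the 14 called members, 10 kept their direction and their call under every alternative that tested them: ADAM8, ADAM10, ADAM11, ADAM12, ADAM19, ADAM28, ADAMTS1, ADAMTS3, ADAMTS16 and ADAMTSL4. ADAM22, ADAMTS13, ADAMTSL1 and ADAMTSL5 lost it in at least 1. ADAMTSL5 lost it in the unfiltered limma fit of log2(TPM + 1) (adjusted p = 0.0641). ADAM22 lost it in that fit too, with a log2 fold change of 0, since its rounded TPM was 0.1 in every library. ADAM22, ADAMTS13 and ADAMTSL1 also lost it at a threshold of 0.01. ADAMTSL genes that fell numbered 0 in place of 1 with DESeq2, with a mean CPM of at least 1, in all 3 fits on TPM and at the threshold of 0.01. In both limma fits filtered at a mean TPM of 1, with pseudocounts of 1 or 0.1, 1 ADAM gene and 1 ADAMTS gene rose and 0 ADAMTS genes fell, since the filter removes ADAM11, ADAMTS3 and ADAMTS16 and ADAMTS13 lost its call; unfiltered, 1 ADAMTSL gene rose. All genes that rose numbered 2880, 2831 and 3138 in those 3 fits (41.3%, 41.6% and 43.3% of calls, against 51.5% in edgeR), and scaling by library size gave 44.7%. With each library left out, 2 to 3 ADAM genes rose and 4 to 5 fell, 2 to 3 ADAMTS genes rose and 1 fell, 2 ADAMTSL genes rose and 0 to 1 fell, and 3746 to 5379 of all genes rose and 3410 to 5224 fell. The replicate block, with 5167 genes higher and 5039 lower, changed no call of a member. Of the 10 uncalled members 9 stayed so, ADAM17 being called without stiff replicate 2. No called value changed sign. List counts without stiff replicate 2, added after seeing the data, stayed within 1.5 times, apart from PAPLN of the secreted relatives, which was then called lower. ADAMDEC1, the other secreted relative outside the symbol rule, had at most 2 fragments in a library. Also added after seeing the data, the summed ADAM level was 1.002 times that of soft per kb of exon, 0.914 times with no length and 0.914 times per kb of coding sequence; for ADAMTSL genes these were 2.66, 2.995 and 2.35 times. Depth limits members below about 1 CPM.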
